A study of Mus musculus with 4 samples.

Results

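The DNA replication machinery is described here by 39 genes: the subunits of the replicative helicase and its loaders, the replicative polymerases with primase, the sliding clamp with its loader, the enzymes that finish lagging-strand fragments and the single-strand binding protein. The genes were listed by name, for what their proteins do and with earlier results of these data known, and their rows were read from a table of raw counts with 55418 gene symbols. RNA was sequenced from 4 libraries of E14 ESCs, a mouse line of strain 12910la grown with serum on gelatin and with LIF, which holds ESCs undifferentiated. 2 libraries came from WT cells and 2 from Pim3-/- clones, in which Cas9 and a pair of sgRNAs had cut the exons of Pim3, a serine/threonine kinase gene. Each knockout library comes from 1 clone, and which replicate number stands for which clone was not given. No age, drug or time course separates the groups, and all 4 libraries share the same line, culture and mRNA kit.

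DNA replication starts at origins, which are marked by the origin recognition complex. In G1 phase, CDC6 and CDT1 help this complex to load the ring of MCM proteins onto DNA, a step known as licensing. In S phase, CDC45 and the GINS complex join the ring to make the active helicase, polymerase alpha with primase lays primers, and polymerases epsilon and delta copy the leading and the lagging strand while held by the PCNA clamp. Many of these genes are textbook targets of E2F transcription factors, and ESCs are known for a short G1 phase and a large share of cells in S phase. In bulk RNA, fewer cells in S phase and less RNA of a gene per cell cannot be told apart.

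Most replication genes were lower in the Pim3-/- libraries than in WT, by different amounts. After TMM scaling, which sets the libraries to a common level by a trimmed mean of gene ratios, 24 of the 39 genes (61.5%) passed the test as lower and 0 as higher, against 16.2% lower and 17.6% higher among the 18444 genes tested. At an unadjusted p under 0.05 the number of higher genes was also 0, and DESeq2 gave 28 lower (15.1% of the genes it tested) and 0 higher (11.6%). The test was the quasi-likelihood test of edgeR at a threshold of 0.05, with Benjamini-Hochberg adjustment across the whole tested table, and it is meant wherever an adjusted p is given without another name. All 39 genes passed the filter on low counts. The log2 fold changes, Pim3-/- minus WT, ran from -1.67 for Pcna to -0.02 for Pole, with a median of -0.69 against 0.07 for all tested genes. Both Pim3-/- libraries lay below both WT libraries in 37 of the 39 genes (94.9%), against 34.2% of all tested genes, and the exceptions were Mcm4 and Pole. Among the 1679 tested genes in the interquartile range of level of the replication genes, this share was 62.6%.

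**Figure D1:**
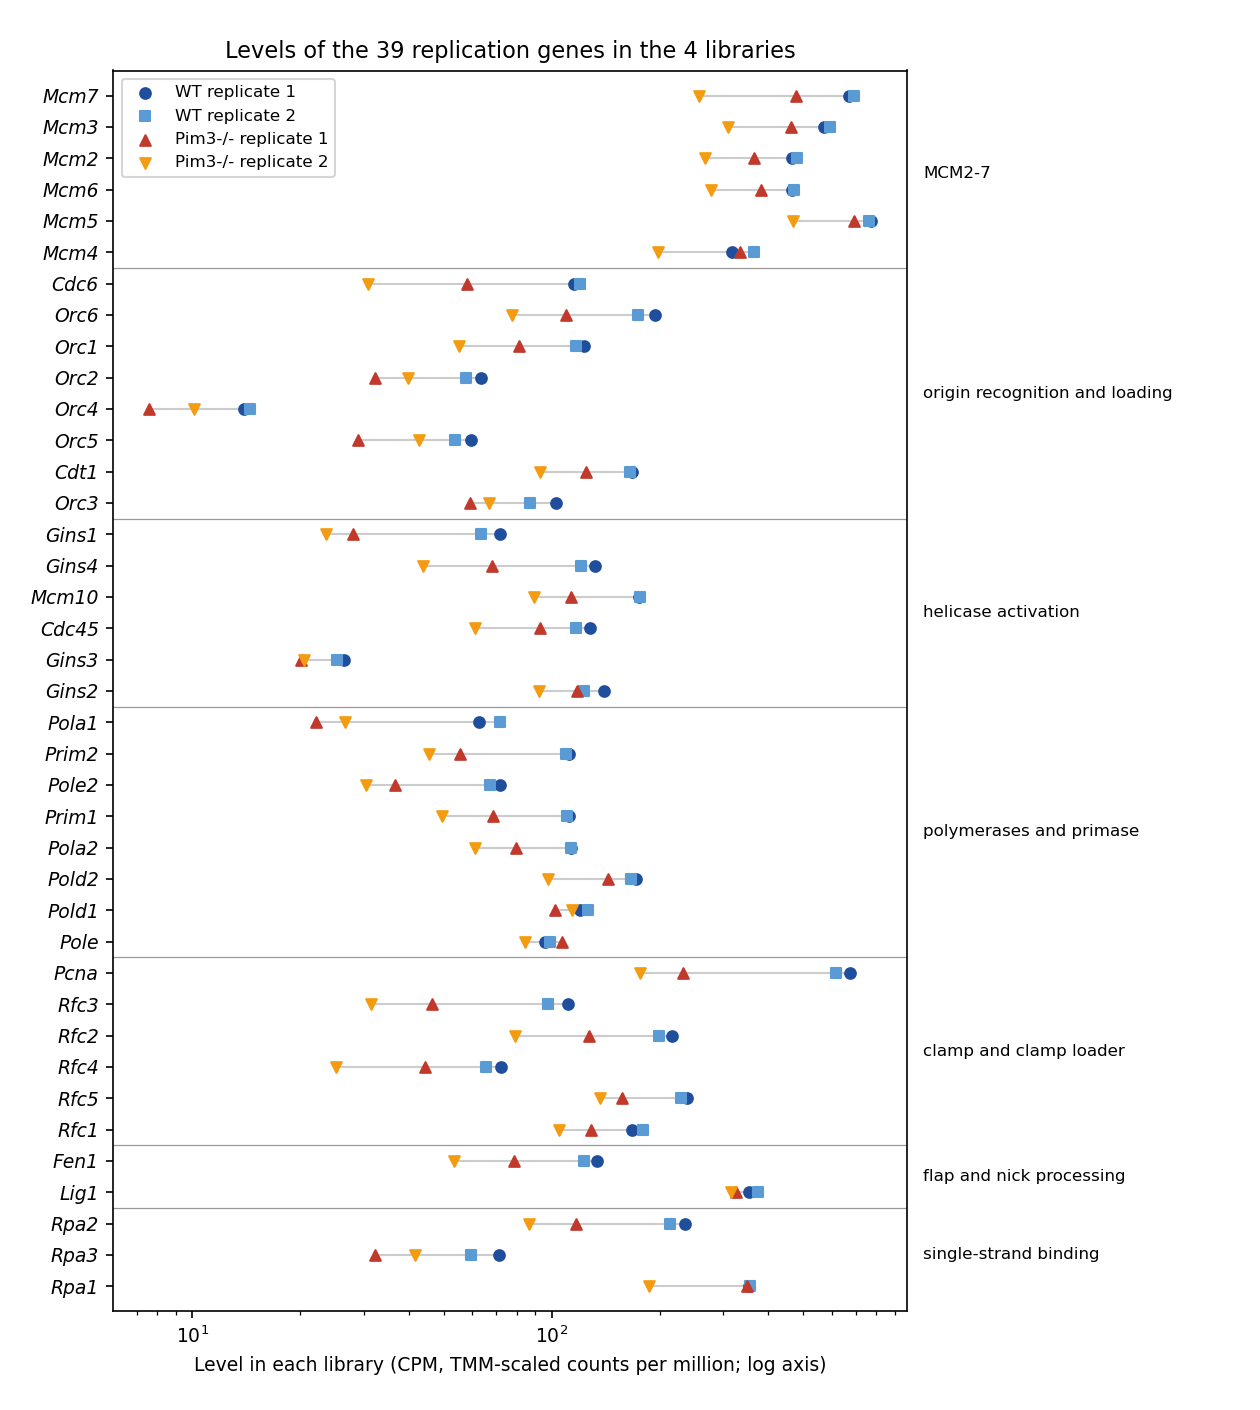
Level of each of the 39 replication genes in each of the 4 libraries, in TMM-scaled CPM (counts per 1e6 counts) on a log axis, grouped by role and ordered by fold change. WT replicates 1 and 2 are circles and squares, Pim3-/- replicates 1 and 2 are triangles pointing up and down, and the grey line joins the lowest and highest library; the groups overlap in Mcm4 and Pole.

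The libraries held 23156247 and 25668307 counts in WT replicates 1 and 2, and 22892949 and 22029427 in Pim3-/- replicates 1 and 2. The correlation of log2 CPM across genes was 0.99 for the WT pair, 0.968 for the knockout pair and 0.929 to 0.946 across the groups. For Pim3 the counts were 4392 and 4953 in WT, against 4970 and 4804 in the libraries labelled Pim3-/-, with a log2 fold change of -0.27 (SE 0.17, adjusted p = 0.251), so the count over the whole gene does not check the labels. Among 8 pluripotent stem cell markers the summed level was 6280 and 6070 CPM in WT and 4780 and 4430 CPM in Pim3-/-, with 3 lower and 1 higher. The 8 two-cell-like markers, all called higher, summed to 17.5 and 14.6 CPM in WT and to 163 and 45.7 CPM in Pim3-/-. All 7 tested primitive endoderm markers of 8 were higher too, with sums of 30.0 and 37.0 CPM against 139 and 120 CPM. Trophoblast markers summed to 109 to 138 CPM in all libraries (2 of 6 tested higher), and fibroblast markers to 27.7 and 28.2 CPM against 49.0 and 44.8 CPM (1 of 3 tested higher, Lum at 0 in every library). Among all tested genes 16.2% were called lower and 17.6% higher, and these shares shift with level. The counts for pluripotent stem cell, trophoblast and fibroblast markers are not set apart from such shares here. The part of these other cell states in the levels of the replication genes was not tested.

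The call for a single replication gene depends on how the libraries are scaled. When libraries were scaled by their totals alone, the median of all tested genes moved from 0.07 to 0.52 and that of the replication genes from -0.69 to -0.24, and 9 of the 39 replication genes were called lower (5.92% of all tested genes) and 0 higher (35.8%). The 9 genes were Cdc6, Gins1, Gins4, Pola1, Prim2, Pole2, Pcna, Rfc3 and Rpa2. A level-dependent scaling by cyclic loess, added after the data had been seen and tested with limma-trend, called 12 replication genes lower (13.1% of all tested genes) and 0 higher (13.6%). Relative to the median of all tested genes, that of the replication genes was -0.76 with TMM factors and -0.37 with cyclic loess. The 9 genes just named were called lower under TMM factors, library totals and cyclic loess alike.

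**Figure D2:**
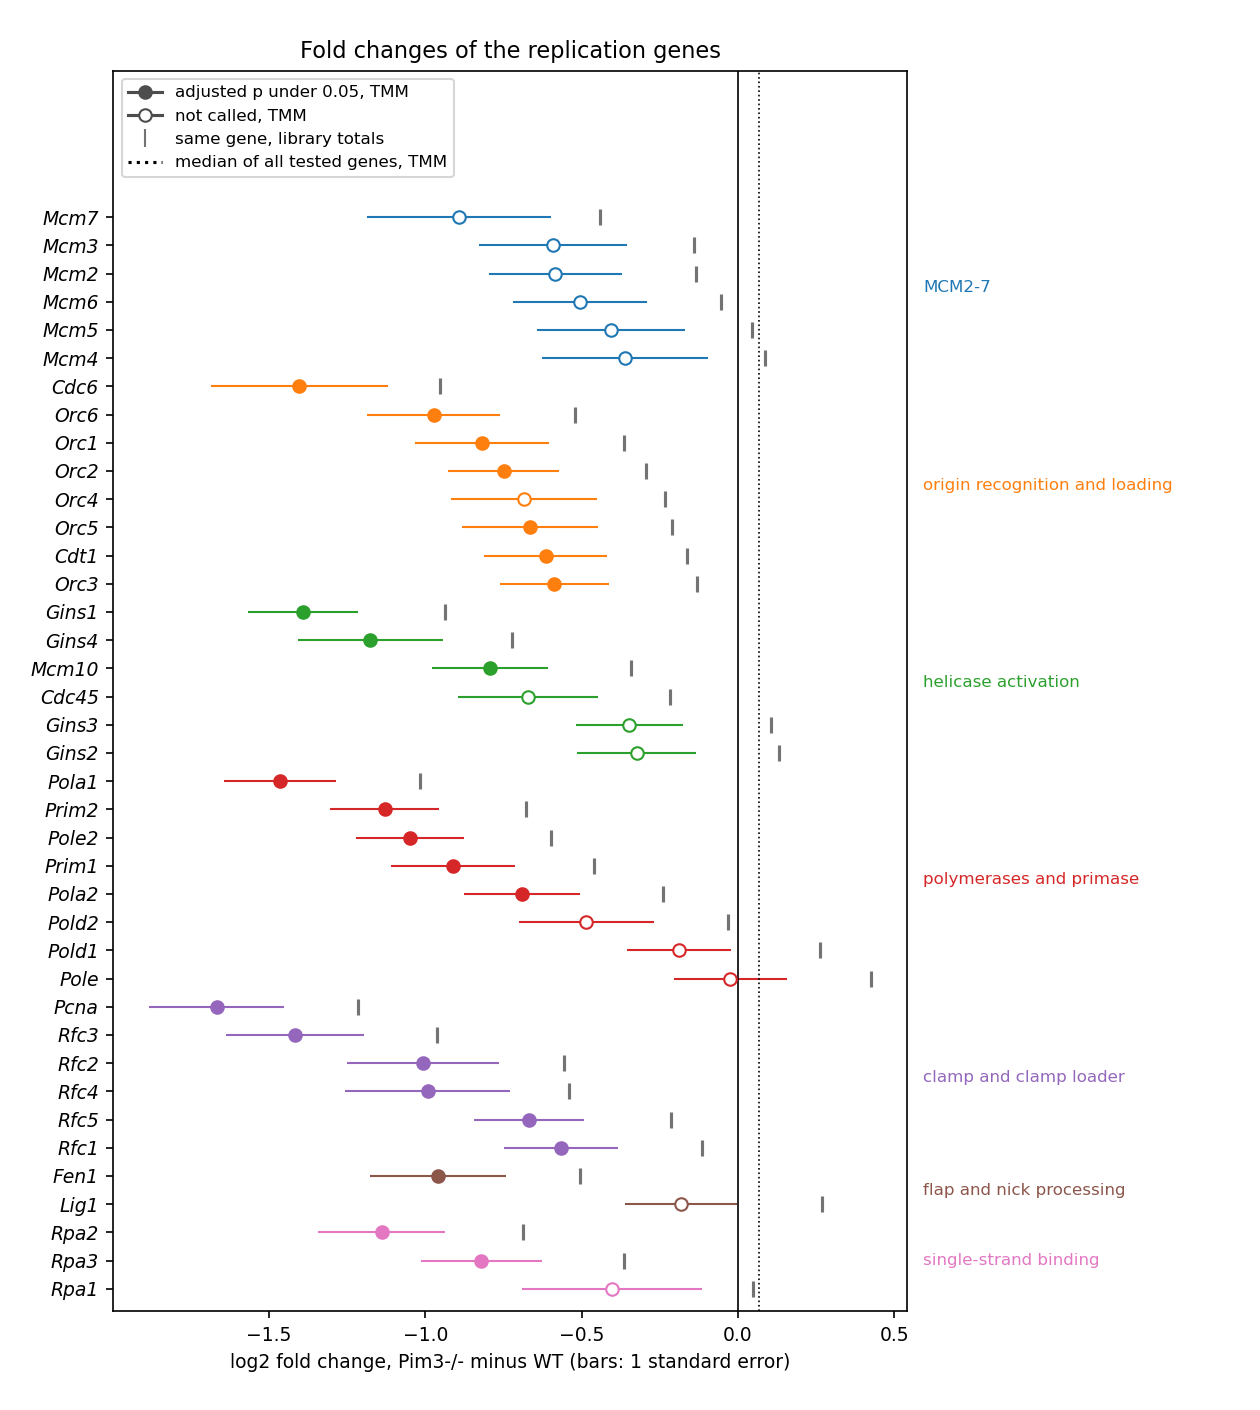
Log2 fold change of each replication gene, Pim3-/- minus WT, with bars of 1 standard error (2 libraries per group). Filled points passed the test with TMM scaling and open points did not, grey ticks give the same gene with library totals, and the dotted line is the median of all tested genes; with library totals 8 genes lie above 0.

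After TMM scaling, highly expressed genes as a whole were lower in Pim3-/-. The replication genes are set beside genes of their own level for that reason. With library totals the median of all tested genes was 0.52 rather than 0.07, and medians per level were not taken for that scaling. Among the 1679 tested genes between 75.2 and 176 CPM, the interquartile range of the replication genes, 38.3% were called lower, 5.96% were called higher, and the median log2 fold change was -0.39. Of the 39 replication genes, 27 lay below the median of all tested genes in their own unit of mean log2 CPM. All 7 replication genes between 5 and 6 on the log2 CPM scale were called lower, where 26.3% of all genes were. Of the 7 between 8 and 9, only Pcna was called lower, where 51.5% of all genes were. The shift with level is a property of these libraries, and its part in the fold changes was not tested beyond the cyclic loess scaling.

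**Figure D3:**
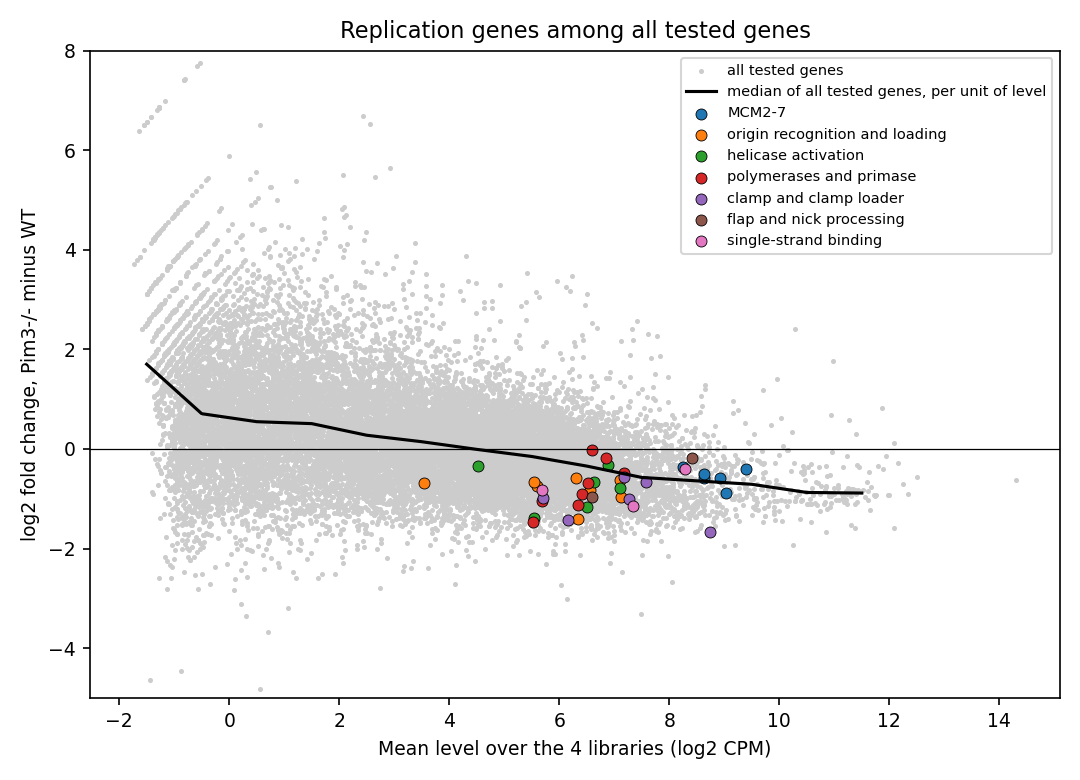
Log2 fold change, Pim3-/- minus WT, after TMM scaling, against the mean level over the 4 libraries in log2 CPM. All 18444 tested genes are grey and the replication genes are coloured by role. The black line joins medians of all genes per unit of level and falls from 1.70 at the lowest level to -0.89 between 11 and 12; the MCM2-7 genes lie near it and most other replication genes lie under it.

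Promoter sequence did not enter the choice of genes directly. Many of the genes are textbook E2F targets, so a high share of E2F-type matches is not independent of that choice. The RefSeq windows of GRCm38.p6, from 250 bases before to 50 bases after a start site, were searched on both strands for the E2F-type motifs TTTCCCGC, TTTGGCGC, TTTCGCGC and TTTGCCGC, which can overlap each other. Of the 32 replication genes with a window, 14 (43.8%) held at least 1 match, against 4.54% of 12042 tested genes and 2.26% of 32851 windows. The other 7 genes, Mcm4, Gins1, Gins2, Gins4, Rfc2, Prim2 and Pole, had no window here. The 14 sites shown, the most upstream for each gene, read 5′ to 3′ on the strand of the gene, with the match in capitals and up to 8 bases on each side:
Mcm3 (chr1:20820278-20820301, minus strand): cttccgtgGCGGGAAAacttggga
Mcm5 (chr8:75109348-75109371, plus strand): ccaagaacTTTCGCGCcaaaacgt
Mcm6 (chr1:128359800-128359823, minus strand): cgtatgctTTTGGCGCgaaaagtg
Mcm7 (chr5:138172033-138172056, minus strand): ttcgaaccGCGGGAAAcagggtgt
Orc1 (chr4:108579419-108579442, plus strand): ggttagtgGCGCGAAAagttttct
Orc3 (chr4:34614968-34614991, minus strand): tgcctcccTTTCCCGCacgccccg
Cdc6 (chr11:98908005-98908028, plus strand): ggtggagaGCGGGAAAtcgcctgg
Cdt1 (chr8:122568039-122568062, plus strand): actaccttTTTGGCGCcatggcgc
Gins3 (chr8:95633510-95633533, plus strand): agtgcggcGCGGGAAAgcgagttt
Pola1 (chrX:93632278-93632301, minus strand): atcacaggGCGCCAAAtgcactcc
Pold1 (chr7:44548766-44548784, minus strand): atcttgtgGCGGGAAAagc
Pole2 (chr12:69228165-69228188, minus strand): cggcggtgGCGCCAAAtcgcgaac
Rfc3 (chr5:151651203-151651226, minus strand): tcgcacgcTTTCGCGCtcgcggga
Lig1 (chr7:13278844-13278867, plus strand): caaagtgcGCGCGAAAtctgtgtg

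The 14 genes with a match had a median log2 fold change of -0.60 and 7 were called lower, while the 18 genes with a window and no match had a median of -0.72 and 13 were called lower. Both the lowest polymerase gene, Pola1, and the uncalled Lig1 and Pold1 held a match. To compare such cases, the promoters of Mcm6, Pola1 and Pcna are shown as the 250 bases before the RefSeq start site with any match in capitals. Gene positions in this text are from GENCODE, which places some starts elsewhere. Its Pcna reaches 132253314 on the minus strand, inside the stretch shown, and the sites of Cdc6, Mcm7 and Lig1, among others, lie inside its genes. The matches found therefore depend on the start site used. Mcm6 was not called lower and holds 3 matches, of which a pair overlap, Pola1 was called lower and holds 1, and Pcna had the lowest fold change and holds 0. A match is a run of letters and not a binding site:
Mcm6 promoter (chr1:128359706-128359955, minus strand): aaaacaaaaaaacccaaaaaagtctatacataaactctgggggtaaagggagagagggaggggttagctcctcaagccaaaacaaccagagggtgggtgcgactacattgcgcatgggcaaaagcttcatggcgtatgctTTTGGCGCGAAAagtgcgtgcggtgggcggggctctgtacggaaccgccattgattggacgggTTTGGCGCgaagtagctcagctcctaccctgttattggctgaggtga
Pola1 promoter (chrX:93632156-93632405, minus strand): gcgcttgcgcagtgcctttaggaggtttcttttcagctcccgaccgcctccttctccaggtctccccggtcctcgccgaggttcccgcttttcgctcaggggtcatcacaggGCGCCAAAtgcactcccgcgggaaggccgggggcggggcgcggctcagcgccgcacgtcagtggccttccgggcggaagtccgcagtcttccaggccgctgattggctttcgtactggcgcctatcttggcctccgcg
Pcna promoter (chr2:132253181-132253430, minus strand): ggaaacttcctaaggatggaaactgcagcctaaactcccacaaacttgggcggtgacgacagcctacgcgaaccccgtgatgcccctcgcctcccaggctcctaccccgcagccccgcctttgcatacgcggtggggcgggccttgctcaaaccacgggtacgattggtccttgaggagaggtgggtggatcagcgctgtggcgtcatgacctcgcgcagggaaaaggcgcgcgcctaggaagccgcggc

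The MCM2-7 genes encode the 6 subunits of the helicase ring and were among the most abundant replication transcripts. None of the 6 passed the test, with a median log2 fold change of -0.55, which compares with -0.67 for the 274 tested genes within their range of level, of which 52.2% were called lower. By edgeR's unadjusted p under 0.05, 4 of the 6 were lower, a share not counted for all tested genes. After adjustment DESeq2 called 3 lower, against 15.1% of the genes it tested. Without Pim3-/- replicate 1 the log2 fold changes of Mcm7 and Mcm4 were -1.426 and -0.805, and without Pim3-/- replicate 2 they were -0.529 and -0.05. Without WT replicate 1 they were -0.977 and -0.521, and without WT replicate 2 they were -0.956 and -0.342. Per kilobase of merged exons, Pcna was the most abundant replication transcript in WT (269 CPM per kb), followed by Mcm5 (192 CPM per kb), Mcm3 (155 CPM per kb) and Mcm7 (154 CPM per kb). With the longest annotated transcript as the length, Pcna stayed first (426 CPM per kb) and Mcm7 (231 CPM per kb) came before Mcm5 (227 CPM per kb). At the other end stood Pola1 (7.64 CPM per kb) and Orc4 (1.91 CPM per kb).

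Mcm7 (chromosome 5, 138164583 to 138172422 of GRCm38, minus strand) had the lowest fold change of the ring. Its counts were 12844 and 15732 in WT against 12774 and 6632 in Pim3-/-, or 671 and 695 CPM against 479 and 257 CPM after scaling. The log2 fold change was -0.89 (SE 0.29, adjusted p = 0.0508), just outside the threshold, and the knockout clones differed from each other by more than the WT libraries did. Mcm4 (chromosome 16, 15623897 to 15637400, minus strand) had the highest fold change of the ring, with 6063 and 8293 counts in WT against 8906 and 5101 in Pim3-/-. Scaled, that is 317 and 366 CPM against 334 and 198 CPM, so that Pim3-/- replicate 1 lay between the WT libraries (log2 fold change -0.36, SE 0.27, adjusted p = 0.317). Mcm2, Mcm3, Mcm5 and Mcm6 lay between these, at log2 fold changes of -0.58, -0.59, -0.41 and -0.51. The sign of Mcm4 and Mcm5 changed with library totals, to 0.09 and 0.05, and with cyclic loess all of the ring except Mcm7 had a positive sign.

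The subunits were also taken as shares of the summed level per kilobase of the ring. Mcm3 held 20.2% and 20.3% in WT and 19.5% and 20.1% in Pim3-/-. Mcm7 was the subunit with the widest range, at 20.2% in both WT libraries and 17.1% and 14.1% in Pim3-/-. Mcm5 held 25.7% and 24.6% in WT and 27.4% and 28.5% in Pim3-/-. With the longest annotated transcript as the length, Mcm7 held 23.8% and 23.9% in WT against 20.6% and 17.0%, so the lower share of Mcm7 in both knockout libraries did not rest on the length chosen.

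Of the 8 genes for origin recognition and loading, 7 were called lower, with a median log2 fold change of -0.72. The shares called lower were 16.2% of all tested genes and 38.3% of those in the replication genes' interquartile range of level. With library totals 1 of the 8 was called lower (5.92% of all tested genes), and with cyclic loess 2 (13.1%). Cdc6, the loader ATPase that is made anew in each cycle, had the lowest value of the group (chromosome 11, 98907801 to 98923940, plus strand). It had 2213 and 2717 counts in WT against 1550 and 797 in Pim3-/-, or 116 and 120 CPM against 58.1 and 30.9 CPM, and both clones lay well under WT. The log2 fold change was -1.40 (SE 0.28, adjusted p = 0.0112), and Cdc6 was called lower in all 11 alternatives of scaling, filter, test and left-out library. Orc3, a core subunit of the recognition complex (chromosome 4, 34570796 to 34614944, minus strand), had the highest value of the group, with 1964 and 1967 counts against 1579 and 1724. That is 103 and 86.9 CPM against 59.2 and 66.9 CPM, a log2 fold change of -0.59 (SE 0.17, adjusted p = 0.0363) with groups that did not overlap.

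The remaining subunits of the recognition complex lay close together. Orc6, the subunit least tightly bound to the rest, was at 194 and 174 CPM in WT and 110 and 77.5 CPM in Pim3-/- (log2 fold change -0.97, adjusted p = 0.0138). Orc1, the subunit that comes and goes with the cell cycle, was at 123 and 117 CPM against 80.9 and 55.1 CPM (log2 fold change -0.82, adjusted p = 0.0242). Orc2 was at 63.4 and 57.9 CPM against 32.3 and 39.8 CPM (log2 fold change -0.75, adjusted p = 0.0174). In Orc2, 29.8% of the exonic bases overlap Nif3l1 on the opposite strand, and since the strand setting of the counting was not given, reads of the pair cannot be told apart. Orc5 fell by 0.66 on the log2 scale (adjusted p = 0.0485). Orc4, the least abundant member with 267 and 328 counts in WT against 203 and 260 in Pim3-/-, had a log2 fold change of -0.68 and did not pass (adjusted p = 0.0565). With cyclic loess and limma-trend, Orc4 passed (adjusted p = 0.0390) while Orc5 did not (adjusted p = 0.141).

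Cdt1, the partner of CDC6 in loading, was at 168 and 165 CPM in WT and 125 and 92.7 CPM in Pim3-/-. Its log2 fold change of -0.62 (adjusted p = 0.0458) was near the threshold and was not called with library totals or cyclic loess. Gmnn encodes geminin, the protein that holds CDT1 inactive after licensing, and its counts were 3768 and 3510 against 2029 and 1937, a log2 fold change of -1.22 (SE 0.19, adjusted p = 0.00559). The ratio of Gmnn to Cdt1 counts was 1.17 and 0.939 in WT and 0.610 and 0.811 in Pim3-/-, a pair chosen after its values were seen.

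Helicase activation gave 3 called genes of 6, where 38.3% of tested genes in the replication genes' interquartile range of level were called lower. The subunits of the GINS complex had unequal fold changes, a difference that was not tested. Gins1 (chromosome 2, 150905400 to 150931280, plus strand) had 1372 and 1442 counts in WT against 748 and 608 in Pim3-/-. Its 71.6 and 63.7 CPM in WT stood against 28 and 23.6 CPM, a log2 fold change of -1.39 (SE 0.18, adjusted p = 0.00396) that was called in all 11 alternatives. Gins2 (chromosome 8, 120578633 to 120589304, minus strand), which encodes another subunit of the same tetramer, had 2676 and 2779 counts against 3144 and 2370, or 140 and 123 CPM against 118 and 91.9 CPM. Its log2 fold change was -0.32 (SE 0.19, adjusted p = 0.219), and 0.13 with library totals. In Gins2, 67.3% of the exonic bases overlap Gse1 on the opposite strand, so this value is uncertain.

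Of the other GINS subunits, Gins4 fell from 132 and 121 CPM to 68.1 and 43.8 CPM (log2 fold change -1.18, adjusted p = 0.0103), and Gins3 was at 26.4 and 25.2 CPM against 20.1 and 20.5 CPM (log2 fold change -0.35, adjusted p = 0.149). The counts of Gins1 per count of Gins2 were 0.513 and 0.519 in WT and 0.238 and 0.257 in Pim3-/-, a ratio within each library that no scaling of whole libraries can alter. The pair was picked as the lowest and highest fold change of the group, and the Gins2 count is uncertain, so the ratio carries no test. Mcm10, which is needed for the loaded helicase to start unwinding, was at 175 and 176 CPM against 113 and 89.1 CPM (log2 fold change -0.79, adjusted p = 0.0172). Cdc45, the partner of GINS in the active helicase, was at 128 and 117 CPM against 92.8 and 61.0 CPM and missed the threshold (log2 fold change -0.67, adjusted p = 0.0529).

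**Figure D4:**
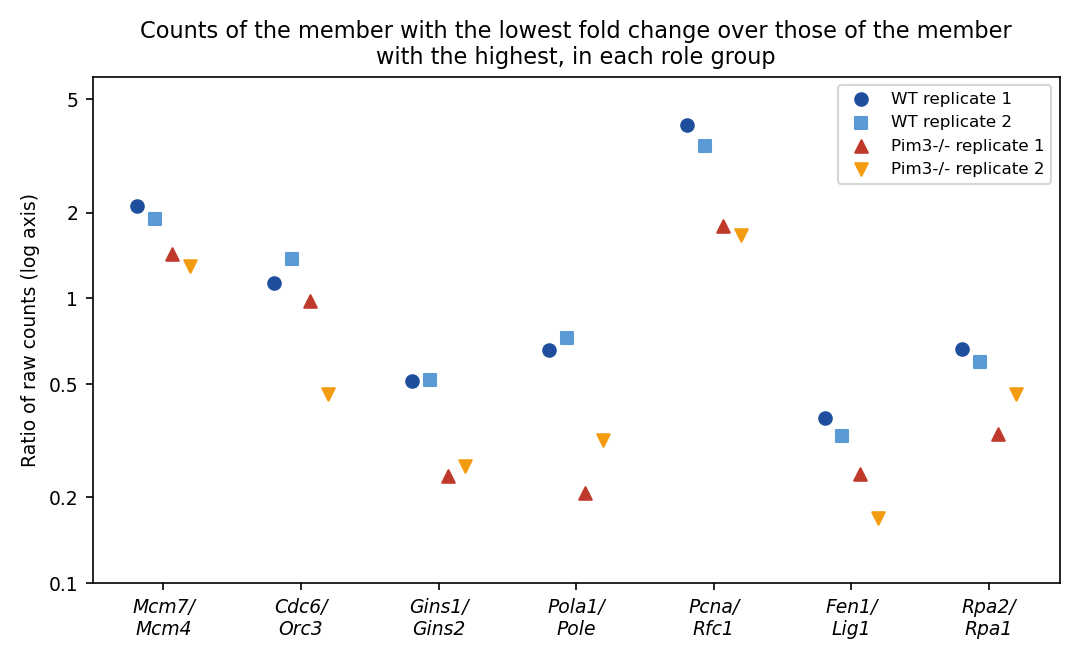
Raw counts of the gene with the lowest fold change in each role group divided by those of the gene with the highest, in each of the 4 libraries, on a log axis. In all 7 pairs both Pim3-/- libraries lie below both WT libraries; the pairs were picked by their fold changes, so the separation of the groups is partly set by that choice and carries no test.

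Among the 8 genes of polymerases and primase, 5 were called lower, against 38.3% of tested genes in the replication genes' interquartile range of level. The 5 were the 4 genes of the primer-making complex and a single accessory subunit of polymerase epsilon. Pola1, the catalytic subunit of polymerase alpha (chromosome X, 93304767 to 93632155, minus strand), had 1205 and 1626 counts in WT against 591 and 687 in Pim3-/-. The scaled levels were 62.9 and 71.8 CPM against 22.1 and 26.7 CPM, so that both clones lay under the lower WT library. The log2 fold change was -1.47 (SE 0.18, adjusted p = 0.00385), a 2.76-fold lower level, and the call held in all 11 alternatives. Prim2 and Prim1, the large and the small primase subunit, had log2 fold changes of -1.13 (adjusted p = 0.00562) and -0.91 (adjusted p = 0.0137). Pola2, the regulatory subunit of polymerase alpha, was at 113 CPM in both WT libraries and at 79.3 and 61.0 CPM in Pim3-/- (log2 fold change -0.69, adjusted p = 0.0262). Within this complex, Pola2 counts per Pola1 count were 1.80 and 1.58 in WT against 3.58 and 2.29 in Pim3-/-, and Prim1 counts per Prim2 count were 1.0 and 1.01 against 1.23 and 1.09, both pairs chosen after their values were seen and not tested.

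Pole, the catalytic subunit of polymerase epsilon (chromosome 5, 110286306 to 110337474, plus strand), had the highest fold change of all replication genes. Its counts were 1829 and 2234 in WT and 2849 and 2169 in Pim3-/-, and its scaled levels 95.5 and 98.7 CPM against 107 and 84.1 CPM, so the knockout libraries lay on either side of WT. The log2 fold change was -0.02 (SE 0.18, adjusted p = 0.929) with TMM factors and 0.43 with library totals. Pole2, which encodes the second subunit of the same enzyme, went from 71.7 and 67.3 CPM to 36.8 and 30.4 CPM, a log2 fold change of -1.05 (SE 0.17, adjusted p = 0.00649). Pole2 counts per Pole count were 0.751 and 0.682 in WT and 0.344 and 0.361 in Pim3-/-, a pair chosen after its values were seen and not tested. The small histone-fold subunits Pole3 and Pole4 were lower as well, at log2 fold changes of -0.78 and -1.19 (adjusted p = 0.0116 and 0.00470). For polymerase delta, Pold1, the catalytic subunit, was at 120 and 126 CPM against 102 and 114 CPM (log2 fold change -0.19, adjusted p = 0.401) and Pold2 at 171 and 166 CPM against 143 and 97.5 CPM (log2 fold change -0.49, adjusted p = 0.118).

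The clamp and its loader were called lower in 6 of 6 genes, with a median log2 fold change of -1.0. With library totals 2 of the 6 were called lower (5.92% of all tested genes), and with cyclic loess 2 (13.1%). Among tested genes in the replication genes' interquartile range of level, 38.3% were called lower. Pcna, the ring that holds polymerases on DNA (chromosome 2, 132249162 to 132253314, minus strand), had 12952 and 13962 counts in WT against 6168 and 4531 in Pim3-/-. The levels of 676 and 617 CPM in WT stood against 231 and 176 CPM in Pim3-/-, and no other replication gene lay so far apart on this scale. The log2 fold change was -1.67 (SE 0.21, adjusted p = 0.00412), a 3.18-fold lower level, with a range of -1.90 to -1.06 over the 11 alternatives, in all of which Pcna was called lower. The processed pseudogene Pcna-ps2 had 338 and 296 counts in WT against 93 and 143 in Pim3-/-. Reads shared between this copy and Pcna were not measured. Per count of Rfc1, Pcna had 4.05 and 3.44 counts in WT against 1.79 and 1.67 in Pim3-/-, a pair picked by its fold changes and not tested.

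Rfc1, the large subunit of the clamp loader (chromosome 5, 65261850 to 65335670, minus strand), had the highest value of this group. It had 3198 and 4055 counts in WT against 3440 and 2707 in Pim3-/-, or 167 and 179 CPM against 129 and 105 CPM (log2 fold change -0.57, SE 0.18, adjusted p = 0.0472). The call of Rfc1 held in only 5 of the 11 alternatives and was lost with library totals and with cyclic loess, among others. Among the small loader subunits, Rfc3 had 111 and 97.6 CPM in WT and 46.5 and 31.5 CPM in Pim3-/- (log2 fold change -1.42, adjusted p = 0.00568), and it was called in all 11 alternatives. Rfc2, Rfc4 and Rfc5 had log2 fold changes of -1.01, -0.99 and -0.67 (adjusted p = 0.0187, 0.0253 and 0.0251). In each of the loader genes both clones lay below both WT libraries, as in 62.6% of tested genes in the replication genes' interquartile range of level.

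Fen1, the nuclease that removes flaps ahead of ligation (chromosome 19, 10199132 to 10204169, minus strand), had 2563 and 2782 counts in WT against 2099 and 1377 in Pim3-/-. At 134 and 123 CPM against 78.7 and 53.4 CPM it was called lower (log2 fold change -0.96, SE 0.22, adjusted p = 0.0153). Of its exonic bases 84.2% overlap genes on the opposite strand, chiefly Gm10143, so the count is uncertain. Lig1, the ligase that seals the fragments (chromosome 7, 13277283 to 13311433, plus strand), had 6752 and 8460 counts against 8686 and 8123. Its 353 and 374 CPM in WT and 325 and 315 CPM in Pim3-/- gave a log2 fold change of -0.18 (SE 0.18, adjusted p = 0.454), and the sign changed with library totals, to 0.27, and with cyclic loess, to 0.43.

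Single-strand binding protein, which coats unwound DNA, is a trimer, and 2 of its 3 genes were called lower. The share was 38.3% among tested genes in the replication genes' interquartile range of level. Rpa2 (chromosome 4, 132768332 to 132778752, plus strand) had 4505 and 4828 counts in WT against 3121 and 2230 in Pim3-/-, or 235 and 213 CPM against 117 and 86.5 CPM (log2 fold change -1.14, SE 0.20, adjusted p = 0.00803). Rpa3 was at 71.1 and 59.5 CPM against 32.2 and 41.7 CPM (log2 fold change -0.82, adjusted p = 0.0175). Rpa1, the large subunit (chromosome 11, 75298166 to 75348324, minus strand), had 6755 and 8061 counts against 9314 and 4818. Its levels of 353 and 356 CPM in WT and 349 and 187 CPM in Pim3-/- set the clones apart from each other rather than from WT (log2 fold change -0.40, SE 0.29, adjusted p = 0.304).

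The knockout clones differed from each other in most replication genes. Pim3-/- replicate 1 was above replicate 2 in 31 of the 39 genes (79.5%), against 52.8% of all tested genes, and the median log2 ratio of the clones was 0.43 against 0.04 for all genes. The median size of the difference was 0.43 on the log2 scale between the clones and 0.08 between the WT libraries, where all tested genes gave 0.35 and 0.18. All 6 MCM2-7 genes and all 6 clamp and loader genes were higher in replicate 1. The 8 exceptions were Orc2, Orc3, Orc4, Orc5, Gins3, Pola1, Pold1 and Rpa3. Without Pim3-/- replicate 1 the number called lower was 35 (27.5% of all genes tested in that fit), and without Pim3-/- replicate 2 it was 29 (25.3%). Without WT replicate 1 it was 5 (1.88%), and without WT replicate 2 it was 9 (5.35%). Knockout and clone cannot be told apart in this design, which holds 1 library per clone.

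Short transcripts were lower than long ones in these libraries, among replication genes as among others. Spearman's rho between log2 fold change and the length of the longest annotated transcript was 0.39 across the 39 replication genes and 0.50 across 1611 protein-coding genes of the same range of level, a description across genes, which share libraries and are not independent. Replication genes of up to 1500 bases had a median of -0.99 (5 genes), close to the -1.03 of 213 protein-coding genes of that length and level. Between 3500 and 5000 bases they had a median of -0.67 (11 genes), where 438 protein-coding genes of the same level had -0.23. Pola1 and Cdc6, with longest transcripts of 5346 and 4802 bases, were long and among the lowest. The part of transcript length in the fold changes was not tested.

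**Figure D5:**
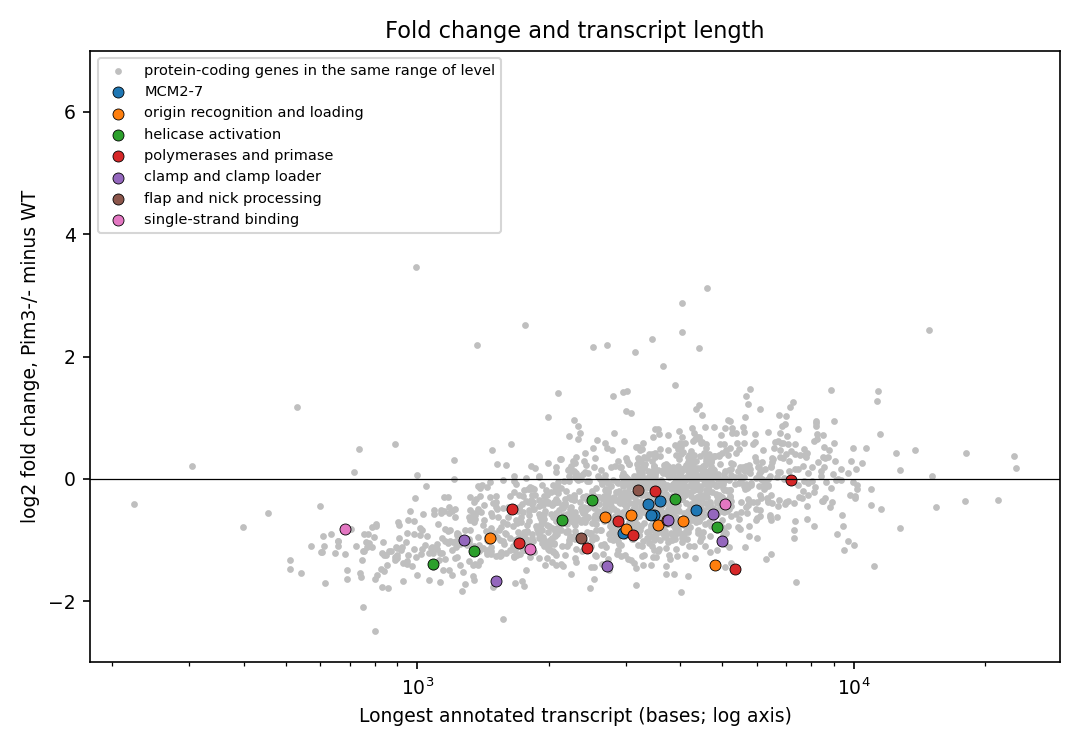
Log2 fold change, Pim3-/- minus WT, against the length of the longest annotated transcript in bases (log axis) for the replication genes, coloured by role, and for protein-coding genes in the same range of level (grey). Values are higher for longer transcripts in both, and Cdc6 and Pola1 lie low among long transcripts.

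Genes that work beside the replication machinery were read from 5 further lists of 49 genes in all. Of these, 19 (38.8%) were called lower and 0 higher, with a median log2 fold change of -0.56, where 16.2% of all tested genes were lower. Among the 2858 tested genes in the interquartile range of level of these 49 genes, 32.6% were lower and the median was -0.28, so the share called is near that of other genes of such levels. Supply of deoxynucleotides had 5 of 10 genes lower, from Tk1, thymidine kinase, at -1.78 (adjusted p = 0.00828) to Rrm1, the large subunit of ribonucleotide reductase, at -1.12 (adjusted p = 0.00617). Tk1 had 165 and 153 CPM in WT and 62.6 and 29.9 CPM in Pim3-/-, with the clones apart from each other and both far below WT. Licensing control and origin firing had 3 of 12 genes lower, from Gmnn at -1.22 to Dbf4, the activator of the CDC7 kinase, at -0.72 (adjusted p = 0.0190). Other subunits and processing enzymes had 6 of 11, from Rnaseh2c, a subunit of the RNase that removes ribonucleotides, at -1.56 (adjusted p = 0.00564) to Rnaseh1 at -0.68 (adjusted p = 0.0224). Fork protection and alternative clamp loaders had 2 of 10, Dscc1 at -1.52 (adjusted p = 0.00474) and Tipin at -1.02 (adjusted p = 0.00695). Chromatin assembly behind the fork had 3 of 6, from the histone chaperone Asf1b at -1.09 (adjusted p = 0.00692) to Chaf1b at -0.92 (adjusted p = 0.00945).

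The E2F and RB genes regulate the transcription of many replication genes. Of 13 tested, 1 (7.69%) was called lower and 3 (23.1%) higher, near the 16.2% and 17.6% of all tested genes, with a median log2 fold change of 0.29. These calls were unsteady. With library totals 0 of the 13 were lower and 7 higher, where 5.92% of all tested genes were lower and 35.8% higher. With cyclic loess 1 was lower and 3 higher, against 13.1% and 13.6% of all tested genes. The calls also moved when 1 library was left out. E2f1, an activator, had 548 and 690 counts in WT against 1831 and 1353 in Pim3-/-, a log2 fold change of 1.03 (SE 0.19, adjusted p = 0.00828). Rb1, the retinoblastoma gene, and Tfdp2, a dimer partner of E2F proteins, were also called higher, the latter at a log2 fold change of 0.57 (adjusted p = 0.0481). E2f5, a repressor-type member, was the gene called lower (log2 fold change -0.83, adjusted p = 0.0101).

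Genes of G2 phase and mitosis act after replication. Of 30 tested, 22 (73.3%) were called lower and 0 higher, against 16.2% and 17.6% of all tested genes and 40.2% lower among the 1731 genes in their interquartile range of level. Their median log2 fold change was -0.81, against -0.69 for the replication genes. With library totals 6 of the 30 were called lower (5.92% of all tested genes) and with cyclic loess 7 (13.1%). The called genes ran from Cks2, a small subunit of cyclin-dependent kinases, at -1.49 (adjusted p = 0.00338) to Cdc25c, the phosphatase that activates CDK1, at -0.63 (adjusted p = 0.0282). The E2F-type motif had a match in 1 of their 25 genes with a window (4%), close to the 4.54% of all tested genes, and in 9 of 40 genes (22.5%) of the lists around the replication machinery.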

How the data were processed

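Gene expression was measured by RNA-seq in 2 WT and 2 Pim3-/- libraries of mouse E14 ESCs. The authors deposited raw counts per gene symbol, without normalization. The submitters' processing notes name Trim Galore, STAR, featureCounts and GRCm38, while the study's methods name Cutadapt, Hisat2, mm10 and Ensembl genes. Which of them made the table, and the strand setting, were not given in the sources used here. The table of transposable elements was not used here.

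The 39 genes, the lists around them and the alternatives were chosen with earlier results of these data known, so their counts are descriptions. Named were all 39 genes, with counts for the lowest and highest fold change of each role group, and the called genes with the lowest and highest fold change of each other list. Symbols were matched to GENCODE M21 (GRCm38), for 55303 of 55418 symbols and for all 39 genes, and promoters were taken from RefSeq (GRCm38.p6).

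Genes with low counts were removed with filterByExpr (minimum count 10, minimum total 15), which left 18444 of 31418 genes with at least 1 count. CPM are counts per 1e6 counts of the tested genes after TMM scaling, and the TMM factors were 0.828 and 0.883 for WT and 1.17 and 1.17 for Pim3-/-. Groups were compared with the quasi-likelihood test of edgeR 4.0.16 in R 4.3.3, without a replicate block, and p-values were adjusted by Benjamini-Hochberg over all tested genes at a threshold of 0.05. Alternatives were DESeq2 1.42.0 size factors, library totals, no filter, at least 10 counts in every library, the DESeq2 Wald test, a replicate block, each library left out, longest transcripts for levels per length and, added after the data had been seen, cyclic loess with limma 3.58.1. With 1 library left out, the lone library of its group is assumed to vary like the other group. Figures were drawn with matplotlib 3.10.9 in Python 3.11.15. The fits were tested on simulated counts. Replicates are separate cultures or clones, 2 per group, and no exact permutation test was run, since its two-sided p has a minimum of 0.333 at this size. At the depth of 22029427 to 25668307 counts per library, 0 counts leave room for up to 3, or 0.112 to 0.157 CPM, which covers counting error only.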

Additional observations from a re-analysis of the deposited data

How the results depend on the processing

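Over the 11 alternatives that give calls, 0 replication genes were called higher. With library totals the number called lower was 9 and the median log2 fold change -0.24, and with cyclic loess 12 and -0.358, against 24 and -0.692. With library totals the lists around the machinery had 13 genes lower and 4 higher, and G2 and mitosis had 6 lower and 2 higher. Of all tested genes, 5.92% were lower and 35.8% higher with library totals. With cyclic loess the lists around the machinery had 16 genes lower and 3 higher, and G2 and mitosis had 7 lower and 1 higher. Of all tested genes, 13.1% were lower and 13.6% higher with cyclic loess. With at least 10 counts in every library, 2 genes around the machinery were higher. With 1 library left out, 5 to 35 replication genes were lower (median -0.927 to -0.649), 6 to 38 genes around the machinery were lower and 0 to 3 higher, and 4 to 26 genes of G2 and mitosis were lower and 0 to 2 higher. Of all tested genes, 1.88% (without WT replicate 1) to 27.5% (without Pim3-/- replicate 1) were called lower in the fits with 1 library left out. The ranges of genes called lower in those fits are therefore not a result about the listed genes alone. The share of all tested genes called higher was not counted for those fits. The remaining settings kept the counts of the listed genes within 1.5 times. The cause of these moves was not tested.

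The sign changed with library totals for Mcm4 (0.087), Mcm5 (0.046), Gins2 (0.131), Gins3 (0.105), Pold1 (0.262), Pole (0.426), Lig1 (0.27), Rpa1 (0.048) and Pim3 (0.187). With cyclic loess it changed for Mcm2 (0.035), Mcm3 (0.05), Mcm4 (0.184), Mcm5 (0.295), Mcm6 (0.114), Gins2 (0.089), Pold1 (0.227), Pole (0.345), Lig1 (0.434), Rpa1 (0.121) and Pim3 (0.259). Pole also changed sign with at least 10 counts in every library (0.055) and ranged from -0.224 to 0.12 with 1 library left out, positive without Pim3-/- replicate 2. Cdc6, Gins1, Pcna, Pola1 and Rfc3 were called lower in all 11 alternatives of the test, and Lig1, Pold1 and Pole in 0.

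Libraries with the same replicate number did not deviate together across all genes (correlation of deviations 0.02). With 2 libraries per group this is a single value, which cannot exclude a pairing that touches only some genes. With a replicate block, 27 replication genes were lower (median -0.704, against 0.055 for all tested genes), 25 genes around the machinery and 22 of G2 and mitosis. The share of all tested genes called with the block was not counted, so these counts have no background beside them. In 38 of the 39 genes both group means were above 10 CPM, and Orc4 was the exception.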
